A study of Mus musculus with 8 samples.

Results

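The genes described here are the Rab GTPases, the largest branch of the Ras-like small GTPases, taken as every gene symbol in the table that is Rab followed by a number and at most a letter and a digit. The table lists 24982 genes, and 59 symbols matched. Of these, 49 varied and had a mean of at least 3 on the regularized log2 (rlog) scale over all libraries, among 12861 genes that met the same criteria and were tested. *Rab17* was constant, and *Rab25*, *Rab44*, *Rab19*, *Rab20*, *Rab42*, *Rab38*, *Rab32*, *Rab7b* and *Rab37* had lower means. The members just inside the minimum were *Rab39* (mean rlog 3.32) and *Rab29* (3.44), and those just outside it were *Rab37* (2.95) and *Rab7b* (2.79). The rule for members used the symbol, the variation and the mean level over all libraries, not the difference between groups. The family itself was chosen with earlier results of these data known.

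The libraries came from the microdissected amygdala of male C57BL/6 mice, and each library held RNA of a single animal. By the methods of the study, the mice were at least 8 wk old when assigned to their drinking water. In the aspartame group, 4 mice drank water containing 0.03% aspartame for 18 wk according to the sample labels, whereas the methods of the study give a shorter exposure, and in the plain water group 4 mice drank plain drinking water. The mice were 187 to 189 d old, and none carried an engineered allele according to the labels. Libraries are named by group and number. The rlog scale is log2 of counts after scaling for library size, and it pulls genes with few counts toward their own mean. A difference is the mean rlog in aspartame minus that in plain water. The values are no longer counts, so depth is unknown and no counting interval can be given.

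Rab proteins switch between a GDP-bound form held in the cytosol by GDP dissociation inhibitor and a GTP-bound form on a membrane. Exchange factors load GTP, GTPase-activating proteins end the active state, and effectors that bind the GTP form move, tether or fuse vesicles. Each Rab marks particular membranes, so that the family is used as a map of the secretory and endocytic routes. In neurons, Rab3 proteins sit on synaptic vesicles, Rab5, Rab4 and Rab11 proteins carry receptors through early and recycling endosomes, and Rab7 drives late endosomes toward lysosomes.

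Aspartame 2 stood apart from the other aspartame libraries. Across the genes tested it correlated at 0.971 to 0.984 with the other aspartame libraries, which correlated with each other at 0.990 to 0.993, and plain water libraries correlated with each other at 0.993 to 0.997. With plain water it correlated at 0.984 to 0.994 and aspartame 1, 3 and 4 at 0.984 to 0.993, so that it was no farther from plain water than they were. On the first principal component (55.8% of the variance) aspartame 1, 2, 3 and 4 scored 17.9, -27.6, 5.55 and 24.0. The plain water libraries scored between -10.3 and 4.32. Aspartame 1, 3 and 4 thus lay above the plain water range, aspartame 3 closely, and aspartame 2 below it. The methods of the study leave an aspartame sample out after PCA without naming it, and aspartame 2 is taken here as that sample. Values are therefore given for 7 libraries (aspartame 1, 3 and 4 and all plain water libraries), and for part of the genes also for all 8. Where no set is named, a difference is over 7 libraries. Because the library was left out on the values under study, the p-values of the 7 libraries do not take that choice into account. They set the difference between groups against the spread between libraries. Each library is a single animal, so spread between animals and spread from library preparation cannot be told apart. Over 7 libraries, 1136 of 12861 genes (8.83%) passed an adjusted p of 0.05, 786 (6.11%) higher and 350 (2.72%) lower in aspartame (718 and 520 after quantile normalization), and over all 8 libraries none did (553 genes, 4.3%, had an unadjusted p under 0.05). Without plain water 2, 3 or 4 or aspartame 4 the 7-library count was 371, 135, 221 and 277, and without aspartame 3 it was 2080. The amygdala nucleus markers *Rspo2*, *Prkcd* and *Crh* were detected, with medians over all libraries of 6.48, 5.77 and 3.92.

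Differences among the 49 Rab genes were small. A single member, *Rab28*, passed the test over 7 libraries, and it was lower in aspartame (1 of 49, 2.04%, against 8.83% of all genes tested). No member passed over all 8 libraries. Differences ran from -0.32 (*Rab11a*) to 0.29 (*Rab43*), 11 members differed by over 0.2 and 2 by over 0.3. The 95% intervals had a median half-width of 0.197, and 47 of the 49 lay within 0.5 of no difference in either direction. More members had a mean below that of plain water than above it (34 below and 15 above, 69.4% below, against 50.9% of all genes tested), with a median difference of -0.059 against -0.004 for all genes. Over all 8 libraries the medians were -0.048 for the Rab genes and 0.003 for all genes. In bulk tissue, fewer cells of a type and less RNA per cell cannot be told apart.

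**Figure D1:**
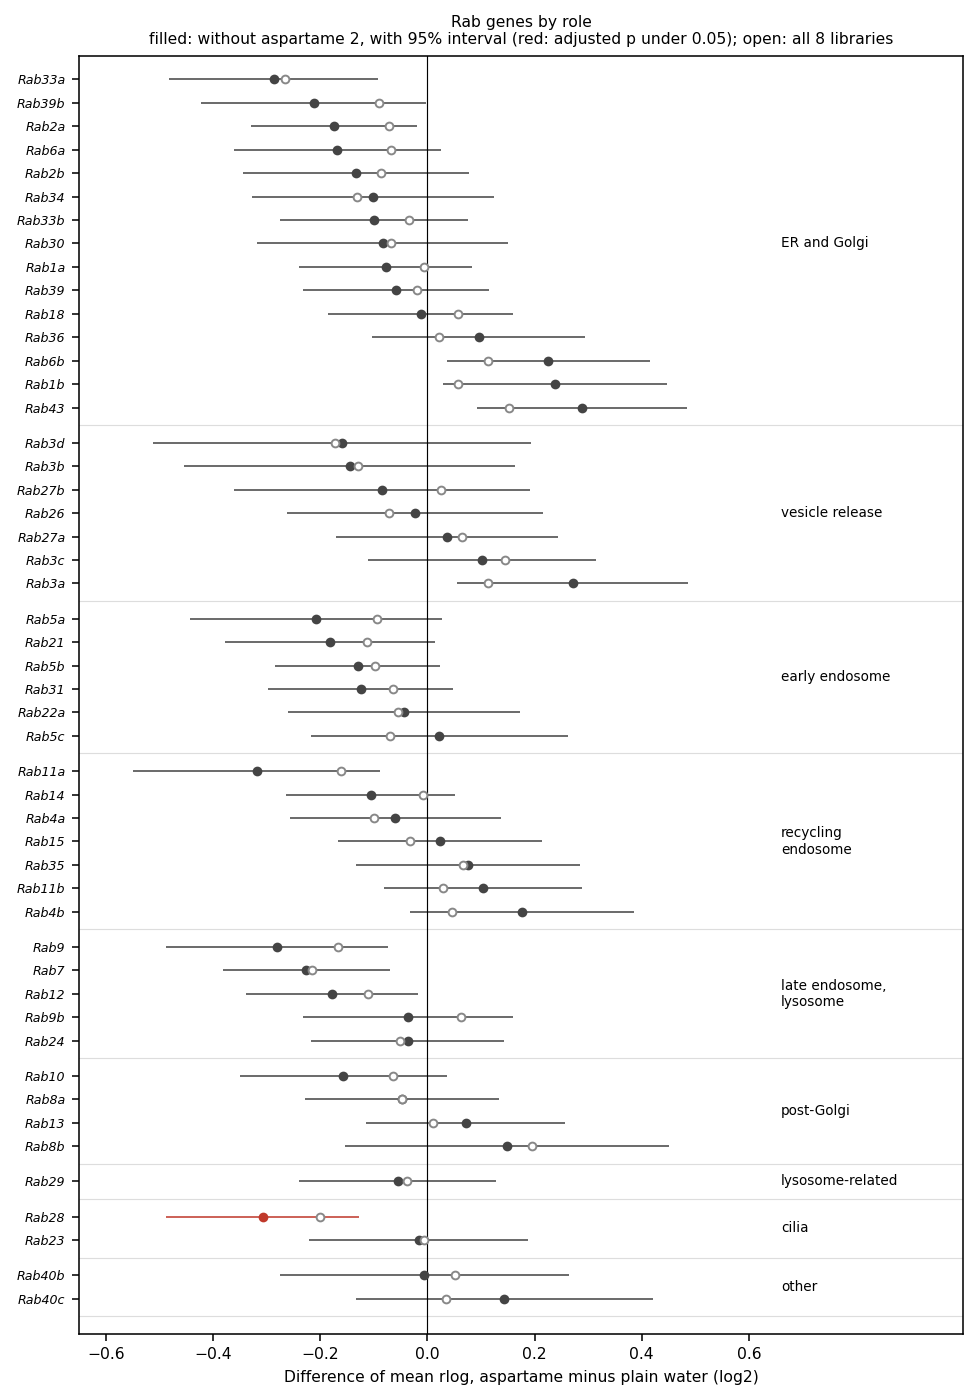
Difference in mean rlog between aspartame and plain water, with its 95% interval, for the 49 Rab genes, grouped by role, from aspartame 1, 3 and 4 and the 4 plain water libraries, with the difference over all 8 libraries as an open circle. Differences lie between -0.32 and 0.29, and *Rab28* at -0.31 is the member that passed the test over all genes.

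At an unadjusted p under 0.05 stood 12 members (24.5%, against 27.1% of all genes), 4 higher (8.16%, against 15.1%) and 8 lower (16.3%, against 12%). The groups of 7 libraries did not overlap for 10 members, 2 higher (4.08%, against 10.9% of all genes) and 8 lower (16.3%, against 12%). With aspartame 2 included, *Rab33a* and *Rab7* alone had groups that did not overlap, both lower in aspartame (2 of 49, 4.08%, against 2.37% of all genes lower and 3.37% in either direction). They were also the members with an unadjusted p under 0.05 over all 8 libraries (4.08%, against 4.3% of all genes, of which 1.8% were higher and 2.5% lower). These shares were near the background of all genes, or below it for the higher direction.

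*Rab28* encodes a farnesylated Rab of cilia and photoreceptors, in which mutations cause cone-rod dystrophy in people. The gene lies on chromosome 5 (GRCm38, chr5:41624976-41708157, minus strand). In aspartame 1, 3 and 4 it had rlog values of 7.12, 6.94 and 6.91, aspartame 2 had 7.42, and plain water 1 to 4 had 7.30, 7.22, 7.35 and 7.30. The 3 aspartame libraries were below every plain water library, and aspartame 2 was above all of them. *Rab28* averaged 6.99 ± 0.11 (SD, n = 3) in aspartame and 7.30 ± 0.053 (SD, n = 4) in plain water, so that it decreased by 19.2% (difference -0.31, SE 0.083, 95% interval -0.49 to -0.13, adjusted p = 0.0419 by limma). Over all 8 libraries the difference was -0.20 (adjusted p = 0.903). Without plain water 1, 2, 3 or 4, aspartame 3 or aspartame 4 its adjusted p was 0.0606, 0.0768, 0.136, 0.129, 0.0510 and 0.117, and 0.0349 was reached without aspartame 1. After removal of a smooth trend with transcript GC content and length, *Rab28* differed by -0.10 (adjusted p = 0.461). *Rab23*, the other member of the ciliary group and an inhibitor of Hedgehog signaling, differed by -0.02.

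*Rab7* and *Rab33a* kept their separation between groups in all 8 libraries. Rab7 takes cargo from early to late endosomes and to lysosomes, and its gene lies on chromosome 6 (chr6:87999106-88045270, minus strand). *Rab7* had 9.97, 10.06 and 9.94 in aspartame 1, 3 and 4, 10.04 in aspartame 2, and 10.16, 10.24, 10.19 and 10.28 in plain water 1 to 4. The highest aspartame library was below the lowest plain water library. The means over 7 libraries were 9.99 ± 0.058 (SD, n = 3) in aspartame and 10.22 ± 0.051 (SD, n = 4) in plain water, a difference of -0.23 (SE 0.071) that did not pass the test (adjusted p = 0.0693). Over all 8 libraries it was -0.21 (95% interval -0.38 to -0.046, unadjusted p = 0.0170 and adjusted p = 0.903 by limma). Leaving out 1 of the 7 libraries gave adjusted p from 0.0401 (without aspartame 3) to 0.218, and quantile normalization gave 0.0258.

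Rab33a is a Golgi and post-Golgi Rab that carries vesicles into growing axons, and its gene is on the X chromosome (chrX:48519285-48530232, plus strand). *Rab33a* was weakly expressed, with 4.87, 4.76 and 4.73 in aspartame 1, 3 and 4, 4.87 in aspartame 2, and 5.23, 5.03, 4.98 and 5.05 in plain water 1 to 4. All aspartame libraries were again below all plain water libraries. The difference was -0.29 over 7 libraries (SE 0.089, adjusted p = 0.0660) and -0.27 over all 8 (95% interval -0.46 to -0.074, unadjusted p = 0.0108 and adjusted p = 0.903 by limma). A median shift of each library brought its adjusted p to 0.0498 and quantile normalization to 0.0414. Leaving out 1 of the 7 libraries raised it to between 0.0717 and 0.176. With the GC and length trend removed, *Rab33a* differed by -0.21 (adjusted p = 0.138) and *Rab7* by -0.099 (adjusted p = 0.328).

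**Figure D2:**
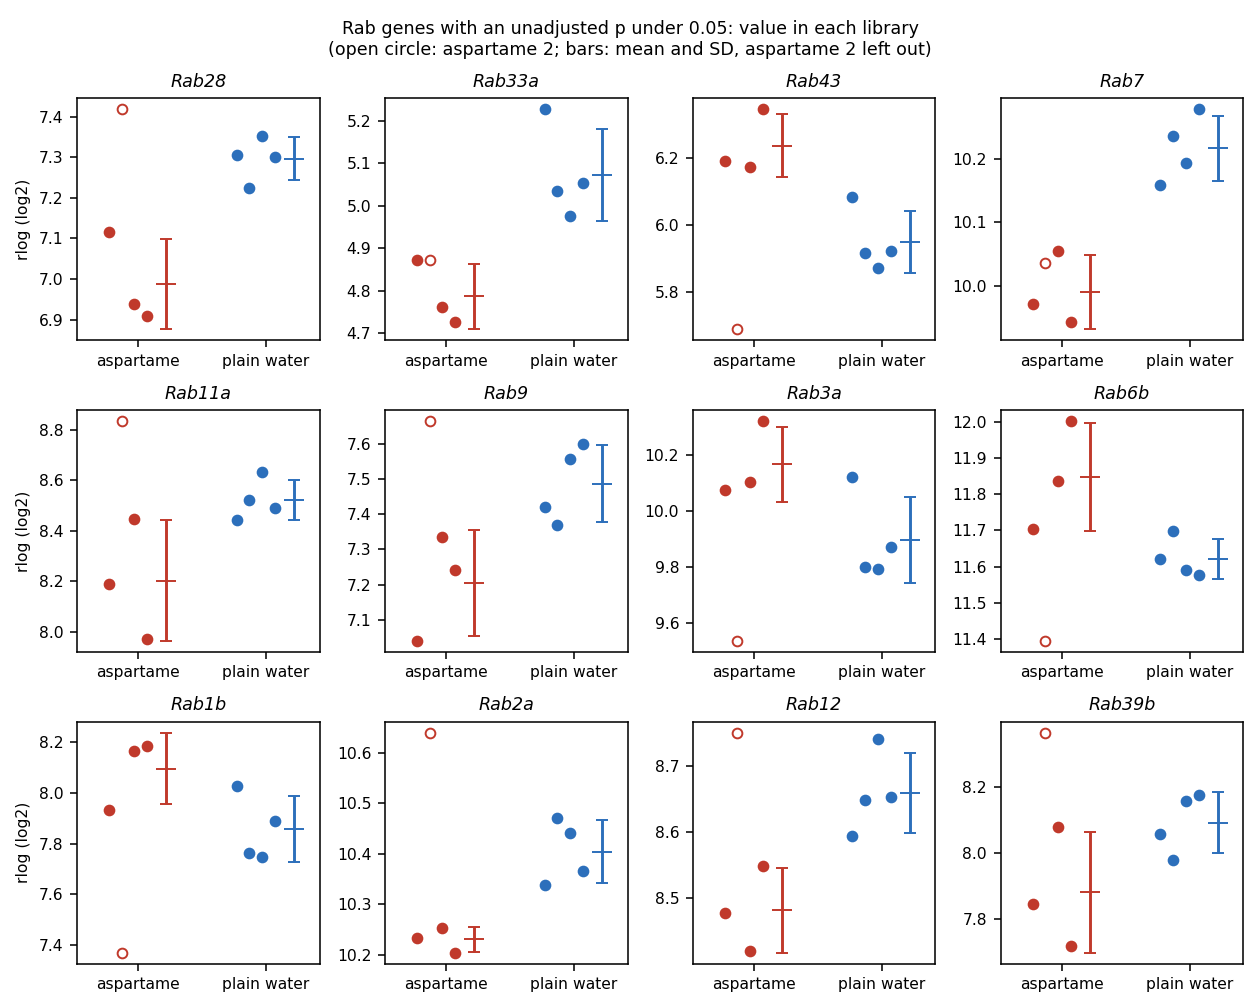
Rlog values per library of the Rab genes with an unadjusted p under 0.05 over 7 libraries, with aspartame libraries at the left and plain water at the right of each panel, aspartame 2 as an open circle, and bars for the mean and SD without aspartame 2. *Rab33a* and *Rab7* have all aspartame libraries below all plain water libraries, whereas in *Rab28* aspartame 2 (7.42) lies above plain water.

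The promoters of these 3 genes are shown because they were the members that were called or that separated the groups in all 8 libraries. Each runs from 250 bases before to 50 bases after an annotated start, 5′ to 3′ on the strand of the gene, as given by RefSeq for GRCm38.p6. Capitals mark matches on either strand to the GC box GGGCGG, to the box named for its letters CCAAT, to the palindromic E-box CACGTG and to the ETS core CGGAAG, none of which overlap in these windows. *Rab28* is chr5:41708130-41708429 (minus), *Rab33a* chrX:48519035-48519334 (plus) and *Rab7* chr6:88045221-88045520 (minus).
Rab28: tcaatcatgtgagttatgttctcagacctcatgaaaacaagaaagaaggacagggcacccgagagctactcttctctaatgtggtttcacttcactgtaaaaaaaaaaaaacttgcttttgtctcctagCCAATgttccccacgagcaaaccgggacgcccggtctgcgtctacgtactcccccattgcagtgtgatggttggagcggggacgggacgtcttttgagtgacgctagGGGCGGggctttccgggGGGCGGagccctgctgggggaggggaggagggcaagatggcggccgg
Rab33a: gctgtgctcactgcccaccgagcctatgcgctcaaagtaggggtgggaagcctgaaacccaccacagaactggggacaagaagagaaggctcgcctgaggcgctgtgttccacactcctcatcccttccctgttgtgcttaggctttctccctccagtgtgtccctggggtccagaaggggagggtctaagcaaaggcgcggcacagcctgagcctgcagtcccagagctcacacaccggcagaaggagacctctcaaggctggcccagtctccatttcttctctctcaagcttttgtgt
Rab7: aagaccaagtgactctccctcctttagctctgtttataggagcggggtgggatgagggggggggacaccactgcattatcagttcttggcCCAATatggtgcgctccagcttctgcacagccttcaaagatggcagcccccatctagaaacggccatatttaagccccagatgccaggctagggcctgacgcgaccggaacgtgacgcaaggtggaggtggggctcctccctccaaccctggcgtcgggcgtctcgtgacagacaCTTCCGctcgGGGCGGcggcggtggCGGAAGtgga
The *Rab28* window held GGGCGG at 2 positions and CCAAT at 1. The *Rab7* window, the first of 2 listed for the gene, held GGGCGG at 1, CCAAT at 1 and CGGAAG at 2 positions, of which CTTCCG is the reverse complement. The *Rab33a* window held none of the 4 motifs. Among the 42 tested Rab genes with a RefSeq promoter that was searched, the first window listed held GGGCGG in 76.2%, CCAAT in 52.4%, CACGTG in 9.52% and CGGAAG in 33.3%. Among 10108 tested genes of any kind the shares were 65.2%, 38.5%, 10.3% and 30.7%. A match is a run of letters and not a site shown to be used.

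The levels of the family were compared only after log2 of the transcript length in kilobases was subtracted. Per length, the plain water libraries were highest for *Rab6a* (9.50 ± 0.083, SD, n = 4), *Rab2a* (9.31 ± 0.063), *Rab6b* (9.30 ± 0.054), *Rab3a* (9.26 ± 0.15) and *Rab7* (9.11 ± 0.051), followed by *Rab3c* (8.48 ± 0.12) and *Rab15* (8.47 ± 0.072). Rab6 and Rab2 proteins act at the Golgi, Rab3 proteins on synaptic vesicles, and Rab15 at early and recycling endosomes. *Rab6a* was above *Rab2a* in every plain water library and *Rab7* above *Rab3c*, whereas the libraries of *Rab2a*, *Rab6b* and *Rab3a* each overlapped with those of the next gene in the order. Of 48 neighboring pairs in the order, 32 overlapped in this way. The lowest members were *Rab29* (3.16), *Rab30* (2.40) and *Rab39* (1.76). In aspartame 1, 3 and 4 *Rab3a* (9.53) and *Rab6b* (9.52) had the highest levels per length. The order depends on the transcript chosen, since with the median transcript length of each gene *Rab15* and *Rab3c* came first.

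**Figure D3:**
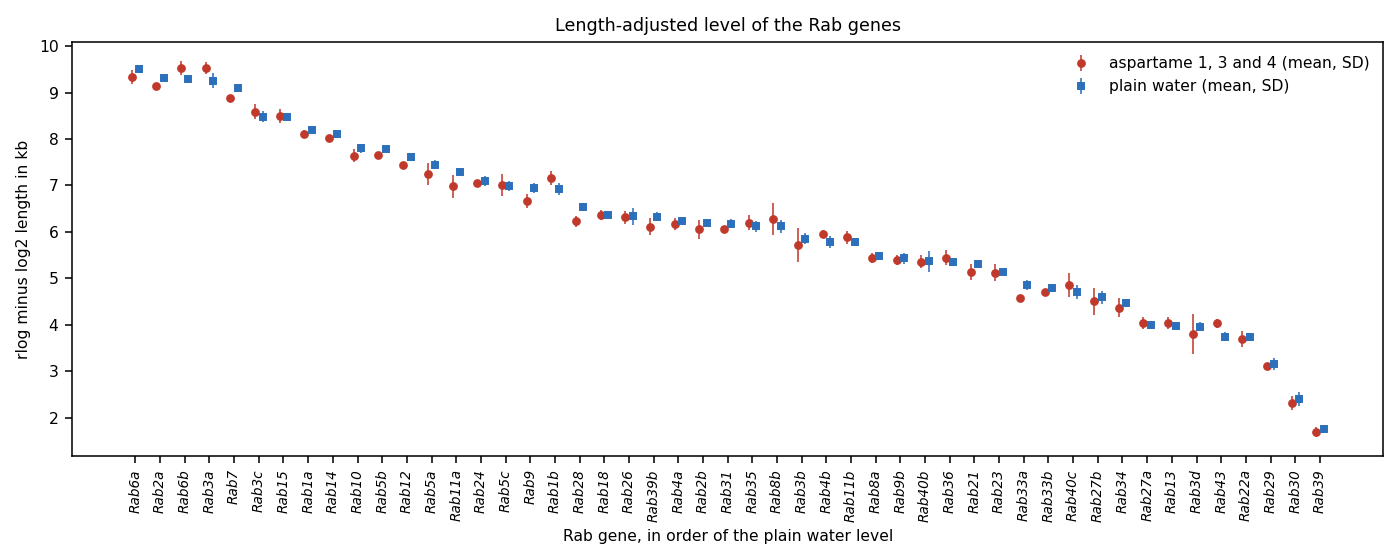
Level per length (rlog minus log2 of transcript length in kilobases) of the 49 Rab genes, as mean and SD of aspartame 1, 3 and 4 (red circles) and of the 4 plain water libraries (blue squares). Plain water means run from 9.50 (*Rab6a*) to 1.76 (*Rab39*), and neighboring genes mostly overlap.

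The 15 tested Rab genes of the endoplasmic reticulum and Golgi had 11 members below plain water and a median difference of -0.083, and none passed the test. *Rab43*, a Golgi Rab that also helps receptors leave the endoplasmic reticulum, had 6.19, 6.17 and 6.35 in aspartame 1, 3 and 4, 5.69 in aspartame 2, and 6.08, 5.92, 5.87 and 5.92 in plain water 1 to 4. The 3 aspartame libraries were above plain water and aspartame 2 below it, so that the difference was 0.29 over 7 libraries (SE 0.090, adjusted p = 0.0667) and 0.15 over all 8 (adjusted p = 0.908). *Rab6b*, the Rab6 form enriched in neurons, had 11.70, 11.84 and 12.00 in aspartame 1, 3 and 4, 11.39 in aspartame 2, and 11.62, 11.70, 11.59 and 11.58 in plain water 1 to 4. Aspartame 2 was again below plain water, with a difference of 0.23 over 7 libraries (SE 0.087, adjusted p = 0.121). *Rab1b*, which acts between endoplasmic reticulum and Golgi, had 7.93, 8.17 and 8.19 in aspartame 1, 3 and 4, 7.37 in aspartame 2, and 8.03, 7.76, 7.75 and 7.89 in plain water 1 to 4. Its groups overlapped (difference 0.24, adjusted p = 0.136, and 0.057 over all 8). With the GC and length trend removed, *Rab43* differed by 0.080, *Rab6b* by 0.19 and *Rab1b* by 0.076.

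In the other direction, *Rab2a*, a Rab of the intermediate compartment between endoplasmic reticulum and Golgi, had 10.23, 10.25 and 10.20 in aspartame 1, 3 and 4, 10.64 in aspartame 2, and 10.34, 10.47, 10.44 and 10.37 in plain water 1 to 4. Aspartame 1, 3 and 4 were below plain water and aspartame 2 was above it (difference -0.17, SE 0.071, adjusted p = 0.141, and -0.072 over all 8 libraries). With the GC and length trend removed the difference of *Rab2a* was 0.016, on the other side of 0. *Rab39b*, which is mutated in X-linked intellectual disability in people and takes part in the traffic of AMPA receptor subunits, differed by -0.21 (SE 0.096, adjusted p = 0.181, and -0.056 with the trend removed) with overlapping groups. *Rab6a*, the ubiquitous Rab6 form, differed by -0.17 and *Rab1a* by -0.08 (0.094 with the trend removed). *Rab18*, a Rab of lipid droplets and endoplasmic reticulum, differed by -0.01. The rest of the group (*Rab2b*, *Rab30*, *Rab33b*, *Rab34*, *Rab36* and *Rab39*) lay between -0.13 and 0.10.

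Among the 7 Rab genes of synaptic and secretory vesicle release none passed the test, and 4 were below plain water (median -0.023). *Rab3a*, the main Rab of synaptic vesicles, had 10.07, 10.10 and 10.32 in aspartame 1, 3 and 4, 9.53 in aspartame 2, and 10.12, 9.80, 9.79 and 9.87 in plain water 1 to 4. Plain water 1 overlapped with the aspartame libraries, and aspartame 2 was below all others. The difference was 0.27 over 7 libraries (SE 0.099, adjusted p = 0.105) and 0.11 over all 8 (adjusted p = 0.923), and *Rab3a* differed by 0.26 with the GC and length trend removed (adjusted p = 0.0868). Without plain water 1, *Rab3a* and *Rab43* passed the test, as 2 of 49 Rab genes beside 1177 of 12861 genes, and *Rab28* did not. *Rab3c* was at 11.66 in aspartame 1, 3 and 4 and 11.56 in plain water, *Rab3b* and *Rab3d* differed by -0.14 and -0.16, and *Rab27a*, *Rab27b* and *Rab26*, which serve secretory granules and vesicles, lay between -0.08 and 0.04. The release Rabs thus included members on either side of plain water.

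Over 7 libraries the early and late endosome groups lay mostly below plain water, as did 69.4% of the 49 Rab genes and 50.9% of all genes tested. Their median differences over all 8 libraries were -0.082 and -0.111. With the GC and length trend removed over 7 libraries they were -0.065 and -0.063. In aspartame 2 alone, the medians relative to plain water were 0.046 and 0.091. Of 6 early endosome Rabs 5 were below (median -0.127), with *Rab5a* at -0.21, *Rab21* at -0.18, *Rab5b* at -0.13, *Rab31* at -0.12, *Rab22a* at -0.04 and *Rab5c* at 0.02, and adjusted p was at least 0.215 for each. Rab5 proteins control the fusion of early endosomes, and Rab21 the endocytosis of integrins. All 5 tested members of the late endosome, lysosome and autophagy group were below plain water over 7 libraries (median -0.178). *Rab9b* was above it over all 8 libraries (0.064), and over 7 with the GC and length trend removed (0.094). *Rab9*, which returns receptors from late endosomes to the Golgi, had 7.04, 7.33 and 7.24 in aspartame 1, 3 and 4, 7.66 in aspartame 2, and 7.42, 7.37, 7.56 and 7.60 in plain water 1 to 4. Aspartame 1, 3 and 4 were below plain water and aspartame 2 was above it (difference -0.28, SE 0.095, adjusted p = 0.0853, and -0.063 for *Rab9* with the GC and length trend removed). *Rab12*, which sends recycling cargo to lysosomes, differed by -0.18 (SE 0.073, adjusted p = 0.145, and -0.046 with the trend removed), *Rab24*, an autophagy Rab, by -0.04, and *Rab9b* by -0.04.

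The 7 recycling endosome Rabs had 3 members below plain water and a median of 0.023. *Rab11a*, the defining Rab of recycling endosomes, had 8.19, 8.45 and 7.97 in aspartame 1, 3 and 4, 8.83 in aspartame 2, and 8.44, 8.52, 8.63 and 8.49 in plain water 1 to 4. Its aspartame libraries spread from the lowest to the highest of all 8, so that the difference of -0.32 (SE 0.11, adjusted p = 0.0798) became -0.16 over all 8 (adjusted p = 0.913), and *Rab11a* differed by -0.11 with the GC and length trend removed. Of the others, *Rab4b* differed by 0.18, *Rab14* by -0.11 (0.047 with the trend removed), *Rab11b* by 0.10, *Rab35* by 0.08, *Rab4a* by -0.06 and *Rab15* by 0.02. The 4 post-Golgi Rabs that carry vesicles to the plasma membrane lay at -0.16 (*Rab10*), 0.15 (*Rab8b*), 0.07 (*Rab13*) and -0.05 (*Rab8a*). *Rab29*, a Rab of lysosome-related organelles and an activator of the kinase LRRK2, lay at -0.06, and *Rab40c* and *Rab40b*, which carry a SOCS box, at 0.14 and -0.01. None of these passed the test over 7 libraries. Without aspartame 3, *Rab11a*, *Rab21*, *Rab39b*, *Rab43*, *Rab5a*, *Rab7* and *Rab9* passed, as 7 of 49 Rab genes beside 2080 of 12861 genes.

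Paralogs of a Rab were then compared within each library, in 13 pairs. The level of *Rab9b* minus that of *Rab9* was higher in every aspartame library (0.44, 0.12, 0.083 and 0.026 in aspartame 1 to 4) than in every plain water library (-0.045, -0.081, -0.017 and -0.11 in plain water 1 to 4). The difference was 0.23 over all 8 libraries, with p = 0.0286 in a two-sided exact permutation test, the smallest it allows, and p = 0.371 after adjustment over the 13 pairs. *Rab6b* minus *Rab6a* was 0.83, 0.67 and 1.00 in aspartame 1, 3 and 4, -0.022 in aspartame 2, and 0.55, 0.48, 0.33 and 0.40 in plain water 1 to 4. These groups and those of *Rab4b* minus *Rab4a* did not overlap over 7 libraries (differences 0.39 and 0.24), where the exact test allows no p under 0.0571 and the adjusted p was 0.248, and they overlapped over all 8. In these pairs, aspartame 2 had the lowest value of all libraries.

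The sign of the differences went in part with the GC content of the transcripts. The 15 Rab genes above plain water over 7 libraries had a median GC content of 54.2% and the 34 below it 46.1%. Across the 49 genes, which share the libraries and are not independent replicates, GC content correlated with the difference over 7 libraries at a Spearman rho of 0.44, and with aspartame 2 minus the plain water mean at -0.86. Over all genes tested these were 0.52 and -0.78. *Rab1b* (58.9% GC) and *Rab11a* (39.5% GC) show the pattern, at 0.24 and -0.32 over aspartame 1, 3 and 4 and at -0.49 and 0.31 in aspartame 2. *Rab34* (59.5% GC) and *Rab8b* (40.6% GC) went against it over aspartame 1, 3 and 4, at -0.10 and 0.15. Aspartame 2 lay on the other side of the plain water mean than the mean of aspartame 1, 3 and 4 in 33 of 49 members, among them all 4 of the higher and 6 of the 8 lower members with an unadjusted p under 0.05, the exceptions being *Rab33a* and *Rab7*. It was the highest of all libraries for 19 of the 49 members and the lowest for 13 of 49, against 28.1% and 28.2% of all genes tested. Aspartame 4 was the highest for 13 of 49 and the lowest for 13 of 49, against 20.9% and 20.8% of all genes.

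Libraries also differed along GC content within each group. The median deviation of the genes with the highest 10% of GC content, minus that of the genes with the lowest 10%, was 0.38, -0.65, 0.032 and 0.46 in aspartame 1, 2, 3 and 4, and 0.20, -0.13, -0.22 and -0.12 in plain water 1 to 4. With the GC and length trend removed within each library, 279 genes were called over 7 libraries (2.18%) and no Rab gene was, the median of the Rab genes was -0.006 against 0.017 for all genes, and the Spearman rho with GC content across Rab genes was -0.076. The sign of the difference changed in 12 of the 49 members, of which 1, *Rab2a*, had an unadjusted p under 0.05 before. The part of GC content in the differences was not tested.

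**Figure D4:**
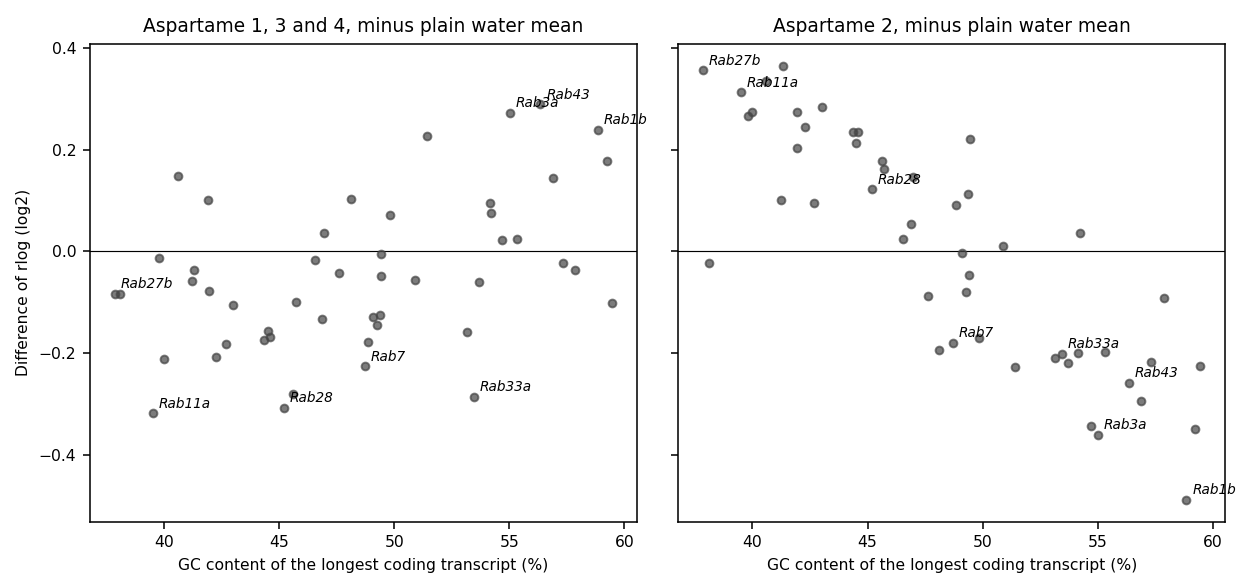
Transcript GC content (percent) against the difference of rlog to the plain water mean for the 49 Rab genes, with the mean of aspartame 1, 3 and 4 at the left and aspartame 2 at the right. The points rise with GC content for aspartame 1, 3 and 4 (Spearman rho 0.44) and fall with it for aspartame 2 (rho -0.86).

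Of 141 tested regulators and effectors of the Rab cycle, a count that includes 5 Rab-like GTPases, 16 rose and 2 fell over 7 libraries (12.8%, against 8.83% of all genes tested). Over all 8 libraries none passed (4 had an unadjusted p under 0.05). Without plain water 2, 3 or 4 or aspartame 4, 2 or 3 genes rose and none fell, without aspartame 1 the counts were 8 and 0, and without aspartame 3 they were 23 and 7. In these settings, in that order, 371, 135, 221, 277, 792 and 2080 of all 12861 genes were called. *Mical3*, an effector of exocytic Rabs, had 8.85, 8.86 and 9.04 in aspartame 1, 3 and 4, 8.01 in aspartame 2, and 8.34, 8.44, 8.25 and 8.24 in plain water 1 to 4. It rose by 0.60 (SE 0.082, adjusted p = 0.00878) and differed by 0.37 over all 8 (adjusted p = 0.903), whereas aspartame 2 was the lowest library. Among DENN-domain exchange factors, 3 of 15 rose (20%, against 8.83% of all genes called). These were *Madd*, which activates Rab3 and Rab27 proteins (0.44, SE 0.071, adjusted p = 0.0104), *Sbf1* (0.45, adjusted p = 0.0199) and *Dennd4b* (0.37, adjusted p = 0.0446). Of 16 other exchange factors (2 called, 12.5%), *Als2cl* and *Rgp1*, a part of the exchange factor of Rab6, rose (0.35 and 0.33).

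Shares of called genes in the smaller lists are read against the 8.83% of all genes tested. Of 38 GTPase-activating proteins (3 called, 7.89%), *Tbc1d16* (0.42), *Sgsm2* (0.37) and *Sgsm3* (0.40) rose. Of 45 effectors, 7 rose and 1 fell (17.8%): beside *Mical3* these were *Rab11fip3* (0.46), *Rab11fip4* (0.40) and *Micall1* (0.38), which act with Rab11 and Rab8 in recycling, the golgin *Golga2* (0.37), the Rab5 effector *Rabep2* (0.40) and the dynein adaptor of Rab6 vesicles *Bicd2* (0.25), and *Rufy1*, an endosomal effector, fell by 0.29. *Vps18*, a core subunit of the HOPS and CORVET tethers, rose by 0.54, as 1 of 9 tethers (11.1%), and *Vps41*, a HOPS subunit, differed by -0.18 (adjusted p = 0.141). Of 10 genes of membrane cycling and prenylation 1 was called, a share near the background: *Gdi2*, a GDP dissociation inhibitor, fell by 0.28 (SE 0.080, adjusted p = 0.0497), close to the threshold. *Rabif*, a chaperone of Rab proteins without nucleotide, differed by -0.33 (adjusted p = 0.0742). None of 3 Rab kinases and phosphatases (*Lrrk1* 0.16, *Lrrk2* -0.19) and none of 5 Rab-like GTPases (*Rabl2* -0.27, *Rabl6* 0.19) passed. With the GC and length trend removed, *Madd* (0.30) and *Mical3* (0.31) remained called, each with an adjusted p of 0.0343. They were 2 of the 141 genes, beside 279 of 12778 genes (2.18%) called in all. All 16 genes that rose had transcripts of at least 53.0% GC (median of all genes tested 49.9%), and 13 of the 16 were lower in aspartame 2 than in every plain water library, the exceptions being *Dennd4b*, *Micall1* and *Bicd2*.

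**Figure D5:**
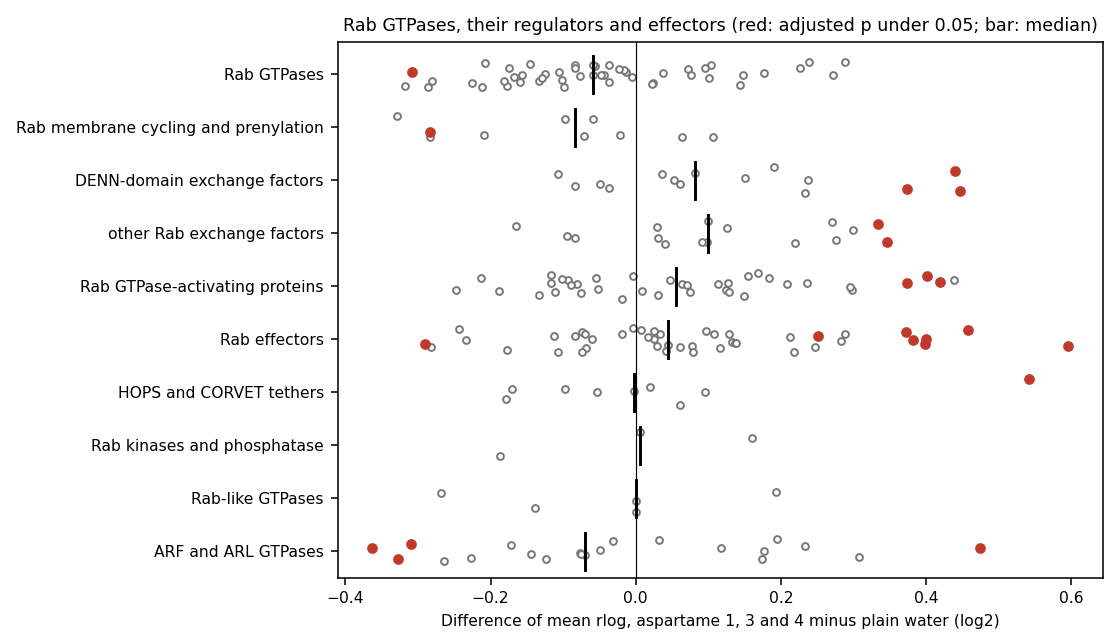
Difference of mean rlog (aspartame 1, 3 and 4 minus plain water) of the genes of the Rab cycle by list, with genes past an adjusted p of 0.05 in red, the median of each list as a bar and the Rab GTPases in the top row. *Mical3* is highest at 0.60, and the called genes below 0 are *Rab28*, *Gdi2*, *Rufy1* and 3 genes of the ARF and ARL list.

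Marker genes of cell types were set beside these values. The mean rlog of 9 neuron markers was 9.88 to 10.06 in aspartame 1, 3 and 4, 9.75 in aspartame 2 and 9.71 to 9.87 in plain water, and 2 of the 9 were called, both higher (6.11% of all genes tested were called higher). That of 6 oligodendrocyte markers was 8.89 to 9.69 in aspartame 1, 3 and 4, 8.76 in aspartame 2 and 8.81 to 9.15 in plain water, with 1 of 6 called higher. Of 4 oligodendrocyte precursor markers 1 was called higher, with 2 above plain water, 2 below it and a median difference of 0.013. No astrocyte, microglia or endothelial marker was called. Over all 8 libraries no marker of these lists was called. With the GC and length trend removed, 1 neuron marker was called and no oligodendrocyte or precursor marker was. The mean rlog of 6 choroid plexus markers was 3.94 to 4.13 in aspartame 1, 3 and 4, 3.93 in aspartame 2 and 3.83 to 5.45 in plain water. Of the 6, 3 had means under 3. Their part in the results was not tested.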

How the data were processed

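The authors sequenced amygdala RNA of 8 male mice. Per the methods and labels, stranded mRNA libraries were read as pairs, STAR aligned the reads to mm10 (GRCm38), and Salmon gave counts for each gene. The deposited table holds log2 values, which its name marks as rlog values (a DESeq2 transformation), and the options are not given in the sources used here.

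Genes that varied with a mean rlog of at least 3 over all 8 libraries were compared by limma 3.58.1 (R 4.3.3), 2-sided, with moderation along a mean-variance trend and Benjamini-Hochberg adjustment over 12861 genes, and the fit was tested on simulated data. GC content, length and coordinates are from GENCODE M21 (GRCm38), in which 12778 of these genes (99.4%) were found. The results were recomputed with all 8 libraries, without each library, with other filters, moderation and scalings, the replicate number as a block, age as a covariate, library weights, and a GC and length trend removed by splines with 5 degrees of freedom within each library. All 8 libraries with each other library left out were added after the data were seen. Python 3.11.15 made the tables and plots.

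Named in full were Rab genes past the threshold, the smallest p of each role group and the largest differences. The lists named up to 4 called genes, or, with under 2 called, the 2 of smallest p. *Rab9*, *Rab6b*, *Rab1b*, *Rab2a*, *Rab12*, *Rab39b*, *Rabep2*, *Bicd2*, *Golga2* and *Rufy1* were chosen after their values were seen. The members and lists were chosen with earlier results of these data known. The role groups and lists are from general knowledge.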

Additional observations from a re-analysis of the deposited data

Results flagged for a closer look

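In each group, the 4 libraries of every tested Rab gene were examined for a highest or lowest library whose gap to the nearest other was too large a part of the range of the group by Dixon's 95% limit. Chance flags about 1 in 20 groups, and 5 of 98 were flagged, which is near that number. *Rab8b*, a Rab of post-Golgi transport, was low in aspartame 1 (8.12) beside 8.69 to 8.74 in the other aspartame libraries. *Rab2a* was high in aspartame 2 (10.64) beside 10.20 to 10.25, and *Rab30*, a Golgi Rab, was low in aspartame 4 (5.38) beside 5.62 to 5.66. In the plain water group, *Rab26*, a Rab of secretory vesicles, was low in plain water 2 (6.73) beside 7.05 to 7.11, and *Rab29* was low in the same library (3.25) beside 3.51 to 3.53.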

How the results depend on the processing

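Over all 8 libraries, with any other library also left out, with the block or with the GC and length trend removed, the counts of all genes called, of Rab genes called lower and of regulators and effectors called higher or lower were 0, and with library weights they were 443, 0, 4 and 0. When each of the 7 libraries was left out, the genes called ranged from 135 to 2080, Rab genes called higher from 0 to 2 and lower from 0 to 6, and regulators and effectors called higher from 2 to 23 and lower from 0 to 7. Removal of the GC and length trend gave 279 genes called, 0 Rab genes lower, and 2 higher and 0 lower regulators. Age as a covariate gave 223, 0, 3 and 0. Rab genes called lower were 2 after a median shift (1 regulator lower) and 5 after quantile normalization (5 regulators lower), beside 385 and 520 of all genes. Without a filter, 9 regulators were called higher and 0 lower, beside 826 and 259 of 18632 genes. Without the mean-variance trend and with robust moderation, 1 regulator was lower, beside 350 and 351 of all genes. The replicate numbers were not shown to pair the libraries: deviations of same-numbered libraries correlated at 0.28, 0.31 and -0.013 for numbers 1, 3 and 4 of the 7 libraries, and 4 of 7 correlated best with their own number. With the replicate block (plain water 2 dropped), 1385 genes, 3 Rab genes lower (*Rab28*, *Rab11a* and *Rab9*) and 1 regulator lower were called. With the block and the trend removed, these were 170, 0 and 0, with 1 regulator higher. With the trend removed, 12 of 49 Rab genes changed sign, among them *Rab2a* (0.016). Of the genes named by rule, *Rab29* was 0.098 with the trend removed, 0.041 with the block added and 0.085 over all 8 libraries. *Rab40c* was -0.048 with the trend removed and the block, -0.015 with the trend removed over all 8, and -0.024, -0.012 and -0.083 over all 8 without plain water 2, aspartame 1 or aspartame 4. *Lrrk1* was -0.086 with the trend removed, -0.022 with the block added, -0.088 over all 8, and -0.028 over all 8 without aspartame 1. The cause of these changes was not tested. Depth is unknown, rlog draws weak genes such as *Rab29* and *Rab39* toward their means, and 3 or 4 libraries per group leave intervals of about 0.2 either side of a difference.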

Other observations

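The ARF and ARL GTPases, which recruit coats and tethers to Golgi and endosomal membranes, are related to the Rab genes but lie outside the family. Of 21 tested, 1 rose and 3 fell over 7 libraries (19.0%, against 8.83% of all genes tested), and the median difference was -0.070. *Arf3*, an abundant Golgi ARF, averaged 12.08 ± 0.24 (SD, n = 3) in aspartame and 11.61 ± 0.065 (SD, n = 4) in plain water and rose by 0.47 (SE 0.11, adjusted p = 0.0236). *Arl1*, which recruits golgins to the trans-Golgi, fell by 0.36 (adjusted p = 0.0293), and *Arl4a* and *Arl5a* fell by 0.31 and 0.33. The gene that rose had 53.1% GC and those that fell had 43.3%, 38.4% and 40.3%, in that order. In aspartame 2, *Arf3* lay 0.22 below plain water and *Arl4a* and *Arl5a* lay 0.37 and 0.29 above it. None of the 4 was called over all 8 libraries (adjusted p at least 0.903) or with the GC and length trend removed (*Arf3* 0.40, adjusted p = 0.0545).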
